A study of Schizosaccharomyces pombe with 6 samples.

Results

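The subtelomeric genes of chromosomes I and II of the fission yeast Schizosaccharomyces pombe were compared between cells lacking rad24 and wild type cells. Members were the protein-coding genes and pseudogenes whose systematic identifiers begin with 1 of 12 cosmid prefixes (SPAC212, SPAC977, SPAC186, SPAC750, SPAC869, SPBPB10D8, SPBPB21E7, SPBPB8B6, SPBPB7E8, SPBC1348, SPBPB2B2 and SPBCPT2R1). Genes of these prefixes named ght, pfl, pdc, mug, meu or mde, and fub2, were left out by name. The rule gave 118 members of 6986 genes, of which 105 were annotated as protein-coding and 13 as pseudogenes. It reads names and gene types only, but it was written with earlier results of these data known. The shares of calls among members are therefore descriptions of a set not chosen blind to the data.

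The rad24 deletion was an h+ strain in which the gene was replaced by the NatMX drug marker (rad24Δ::NatMX, lab strain number AGP141), and the wild type was an h+ strain (wt, lab strain number AGP73). Both were vegetative cells in log phase in YES, a rich medium, at 30 °C, with 3 libraries of poly(A)+ RNA each. Each genotype was 1 strain, so the deletion and any other difference between the strains cannot be told apart. The labels call the libraries replicates without naming separate cultures, and the p-values therefore measure only the spread between these libraries.

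Rad24 is a 14-3-3 protein, a member of a family that binds phosphorylated partner proteins. The ends of fission yeast chromosomes are capped by telomeric repeats and the shelterin complex. Inward of the repeats, chromosomes I and II carry subtelomeric blocks of closely similar sequence, with copies of RecQ-type helicase genes and of multigene families, and part of each block is packed into heterochromatin. Heterochromatin is made by the histone methyltransferase Clr4 and by Swi6, which binds the methylated histone, and further inward lies a condensed chromatin that depends on Sgo2 and Set2. Many genes of these regions are known for low expression in growing cells.

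Each member was placed by its rank in the order of protein-coding genes and pseudogenes, counted from the chromosome end in the ASM294v3 annotation, which matched all 118 members. The left end of chromosome I held 29 members (SPAC212 and SPAC977), its right end 26 (SPAC750, SPAC186 and SPAC869), the left end of chromosome II 35 (SPBC1348, SPBPB8B6, SPBPB21E7 and SPBPB10D8) and its right end 26 (SPBCPT2R1 and SPBPB2B2). The other 2 members, SPBPB7E8.01 and SPBPB7E8.02, ranked 430 and 429 in that order and so were not at an end of either chromosome. They are given apart from the ends below.

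Library totals were 19396868 to 21730112 counts in the rad24 deletion and 11539278 to 15282140 counts in wild type, so every mutant library was deeper than every wild type library. The deleted gene had 27, 39 and 15 counts in the mutant libraries, against 22565, 18442 and 21135 counts in the wild type libraries, as each label requires. Log CPM correlated at 0.9956 to 0.998 (Pearson) for libraries of 1 genotype and at 0.938 to 0.945 across genotypes. Levels below are CPM (counts scaled to a common library total) on library sizes scaled by TMM, a normalization that assumes most genes to be stable. They are shares of each library, so less RNA per cell and fewer expressing cells cannot be told apart. A gene was called where edgeR's quasi-likelihood test, with Benjamini-Hochberg adjustment over all 6084 tested genes, gave an adjusted p below 0.05, and every fold change is the rad24 deletion over wild type.

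Most of the members that could be tested had lower RNA levels in the rad24 deletion. Of the 118 members 57 had too few counts for a test, among them 15 without a count in any library, and of the 61 tested 50 were lower, 9 were higher and 2 were not called. Over all tested genes 37.4% were lower and 40.9% were higher, and 78.3% were called in either direction, so a call alone says little about a gene in these libraries. Of the tested members 82.0% were lower and 14.8% higher. The median log2 fold change of the tested members was -0.97, beside 0.02 over all tested genes. Placing the 2 tested members with no mutant count at their bounds could not move this median, since both bounds lie far below it.

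At least 2-fold differences were called lower for 30 members and higher for 6, where the shares over all tested genes were 5.52% and 7.23%. At least 8-fold lower were 18 members, beside 0.657% of all tested genes, which is 40 genes in all, and 45.0% of those 40 were members. Of these 18 members 17 passed the filter on low counts only through the wild type libraries, where they were high, and so had to differ to be tested. Their number is therefore given as a description only. The 8-fold bound was chosen after the values were seen. All 3 mutant libraries lay below all 3 wild type libraries for 47 of the tested members and above them for 9, where the shares over all tested genes were 38.3% and 41.8%.

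The filter on low counts bears on these numbers, since it kept genes with about 0.577 CPM in 3 libraries. Of the 61 tested members 21 reached it in 3 libraries of wild type alone, 2 in 3 libraries of the mutant alone, and 1 (SPBCPT2R1.04c) only with libraries of both genotypes together. By end the 21 were 6 of 15 tested members at the left and 8 of 15 at the right end of chromosome I, and 5 of 16 at the left and 2 of 13 at the right end of chromosome II. The other 37 had all 6 libraries over it, and of them 29 were lower, 7 were higher and 1 was not called, with a median log2 fold change of -0.64. Among these 37, 9 were at least 2-fold lower, 4 at least 2-fold higher and 1 at least 8-fold lower. The 57 untested members together had 233 counts in the 3 mutant libraries and 358 counts in the 3 wild type libraries, with at most 35 and 48 for any single gene. Without a test, 10 of them had every mutant library below every wild type library and 2 the reverse.

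**Figure D1:**
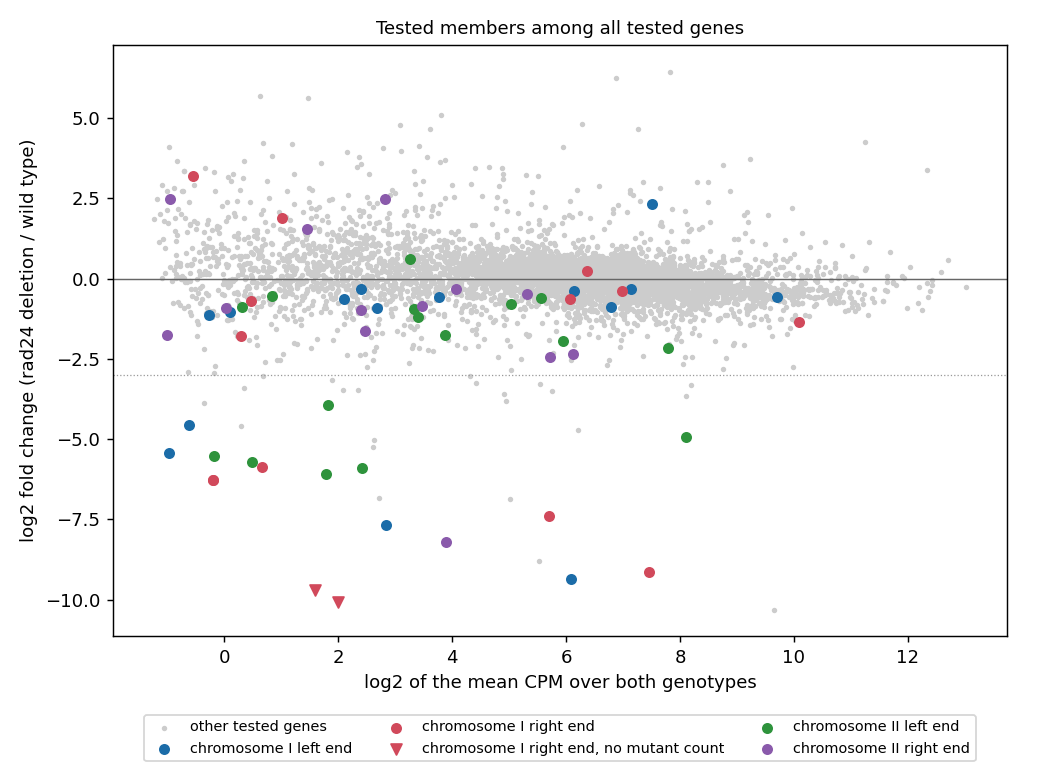
Log2 fold change (rad24 deletion over wild type) against the log2 of the mean CPM over both genotypes for all tested genes, with tested members coloured by chromosome end and other genes in grey. Triangles mark the 2 members with no mutant count, whose fitted fold changes depend on the prior count, and the dotted line marks an 8-fold fall, below which 18 of 40 genes were members.

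At the left end of chromosome I, 13 of 15 tested members were lower, 1 was higher and 1 was not called, with a median log2 fold change of -0.90. The members lower by the most lay together at ranks 13 to 17 from the end. They were SPAC977.18, a conserved fungal plasma membrane protein, ftm1 and ftm2 of the subtelomeric 5Tm membrane protein family, and SPAC977.04, the truncated end of a membrane transporter. The summed level of the 29 members was 1278, 1257 and 1259 CPM in the mutant libraries and 1648, 1623 and 1637 CPM in the wild type libraries, so the sum fell far less than these 4 genes did.

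SPAC977.18 had 0.0439, 0.343 and 0.233 CPM in the mutant libraries and 102, 154 and 153 CPM in the wild type libraries (log2 fold change -9.35 with SE 0.30 and edgeR adjusted p = 4.62e-12). The gene had 13 counts in all over the 3 mutant libraries, against 5250 in wild type. The 5Tm family gene ftm2 (SPAC977.02) had 0.0439, 0.0979 and 0.0466 CPM in the mutant libraries, compared with 11.3, 14.8 and 16.3 CPM in the wild type libraries (log2 fold change -7.67 with SE 0.31 and edgeR adjusted p = 5.59e-11). Its neighbour ftm1 (SPAC977.01) had 0, 0 and 3 counts in the mutant libraries and 21, 15 and 13 counts in the wild type libraries, 27.0 times lower by summed counts over library size (95% counting interval 8.71 to 135; edgeR adjusted p = 1.06e-05). SPAC977.04 had 0, 0 and 1 counts in the mutant libraries, against 11, 15 and 12 counts in the wild type libraries, 62.8 times lower by summed counts over library size (95% counting interval 10.6 to 2546; edgeR adjusted p = 5.84e-06). None of these 4 genes had overlapping libraries. Each reached the filter on low counts in 3 libraries of wild type alone, so their separation is a description only. All but SPAC977.18 have near-identical protein copies elsewhere in the genome, and 62.1% of the stretches of 75 bases in SPAC977.18 occur elsewhere too. The 5 tested members of this end with no such stretch elsewhere held 3 lower calls and 1 higher, with 0 at least 2-fold lower.

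Outward of ftm1, the test called SPAC212.06c, annotated as a truncated DNA helicase, SPAC212.04c, a member of the S. pombe-specific DUF999 family, and SPAC212.12. SPAC212.12 had 9, 11 and 23 counts in the mutant libraries and 11, 28 and 15 counts in the wild type libraries (log2 fold change -1.05 with SE 0.46 and edgeR adjusted p = 0.0496). Its libraries overlapped, and its call was lost with upper quartile scaling, with library size only and with limma-voom. All of its stretches of 75 bases occur elsewhere in the genome. SPAC212.06c had 14, 10 and 9 counts in the mutant libraries and 11, 16 and 17 counts in the wild type libraries (log2 fold change -1.13 with SE 0.33 and edgeR adjusted p = 0.00625). SPAC212.04c had 3.99, 3.96 and 5.26 CPM in the mutant libraries, against 7.06, 8.77 and 9.38 CPM in the wild type libraries (log2 fold change -0.92 with SE 0.15 and edgeR adjusted p = 7.83e-05). In CPM the mutant libraries of SPAC212.06c and SPAC212.04c lay below the wild type libraries. The counts of SPAC212.06c overlapped, and its CPM were 0.614, 0.489 and 0.419 in the mutant and 0.761, 1.49 and 1.22 in wild type. It reached the filter on low counts in 3 libraries of wild type alone, and 62.8% of its stretches of 75 bases occur elsewhere.

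The outermost gene, tlh1 (SPAC212.11), encodes a RecQ-type DNA helicase and was too low for a test, with 2, 1 and 0 counts in the mutant libraries, against 1, 0 and 4 counts in the wild type libraries. The libraries overlapped. Its copy tlh2 lies at the right end of chromosome II, and the 2 encoded proteins are identical over the aligned length.

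Inward of rank 22 lie transporter and enzyme genes with smaller differences. The sodium/proton antiporter gene nhe1 (SPAC977.10, also called sod2), needed for sodium tolerance, had 73.6, 74.8 and 83.3 CPM in the mutant libraries and 144, 144 and 142 CPM in the wild type libraries (log2 fold change -0.90 with SE 0.04 and edgeR adjusted p = 3.47e-10). The fluoride exporter gene fex1 (SPAC977.11) had 3.20, 3.72 and 3.17 CPM in the mutant libraries, compared with 5.33, 4.85 and 5.51 CPM in the wild type libraries (log2 fold change -0.65 with SE 0.14 and edgeR adjusted p = 0.000847). Both fell less than 2-fold with libraries apart, and fex1 shares most of its sequence with fex2 of the left end of chromosome II.

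The dihydroxyacetone kinase gene dak2 (SPAC977.16c) was the single member higher at this end. It had 329, 309 and 270.5 CPM in the mutant libraries, against 60.5, 60.7 and 59.6 CPM in the wild type libraries (log2 fold change 2.33 with SE 0.06 and edgeR adjusted p = 1.16e-12). The rise was 5.03-fold. Next to it and overlapping it on the opposite strand, the water channel gene SPAC977.17 was lower, at 126 ± 5.92 CPM in the mutant and 157 ± 2.20 CPM in wild type (SD, n = 3 each; log2 fold change -0.32 with SE 0.04 and edgeR adjusted p = 2.61e-06). The pseudogene SPAC977.13c, a hydrolase with frameshifts, was not called, with 4.83, 4.99 and 4.38 CPM in the mutant libraries and 5.60, 4.39 and 7.59 CPM in the wild type libraries (log2 fold change -0.33 with SE 0.17 and edgeR adjusted p = 0.0907). Its libraries overlapped, and without wild type replicate 2 it was called lower (log2 fold change -0.48, adjusted p = 0.0155).

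**Figure D2:**
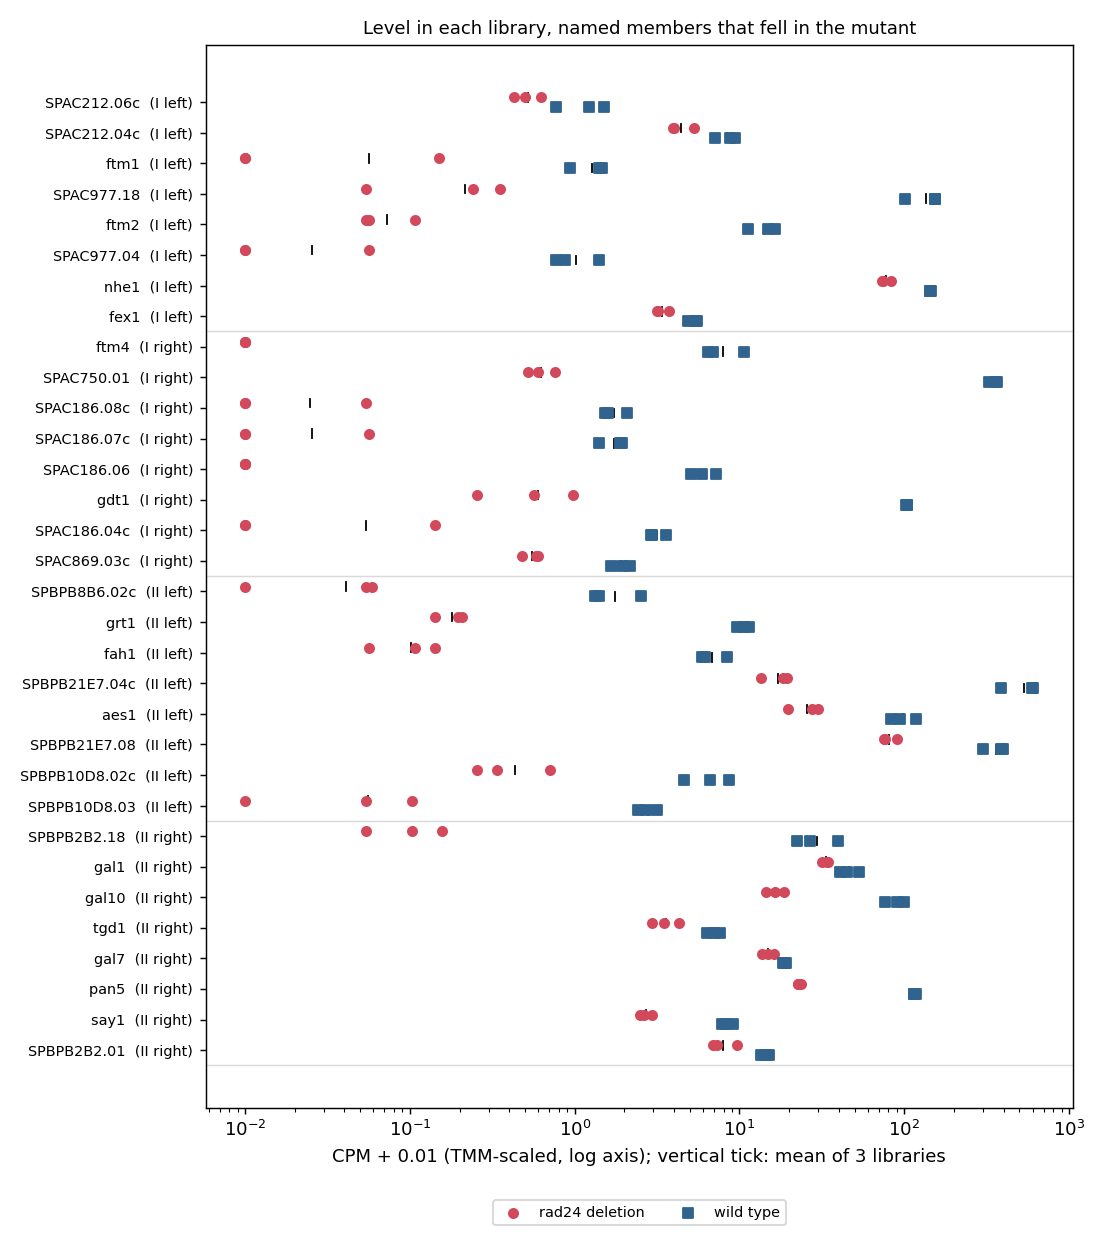
TMM-scaled CPM plus 0.01 on a log axis for the 32 named members called lower, listed by chromosome end and gene order. Circles are the 3 rad24 deletion libraries, squares the 3 wild type libraries and vertical ticks the means; for each gene every circle lies left of every square, with the narrowest gap for gal7.

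At the right end of chromosome I, 12 of 15 tested members were lower and 3 were higher, with a median log2 fold change of -1.79. From rank 1 to rank 7 every member had 0 counts in all 3 mutant libraries. Of these only ftm4 at rank 4 was tested. The others had at most 48 counts over the wild type libraries, and 3 had none in any library. A run of genes at ranks 8 to 14 had almost no counts in the rad24 deletion either. That run included SPAC750.01, an NADP-dependent aldo/keto reductase gene, gdt1, which encodes a Golgi calcium and manganese antiporter, and SPAC186.06, a gene of the PhzF family. The summed level of the 26 members was 896, 863 and 869 CPM in the mutant libraries, against 2200.0, 2367 and 2463 CPM in the wild type libraries.

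No count of ftm4 (SPAC750.05c) was seen in the mutant, with 0 counts in each mutant library and 6.85, 10.6 and 6.44 CPM in the wild type libraries. With a floor of 3 counts over the mutant group this is at least 167-fold lower (edgeR adjusted p = 1.87e-08). SPAC186.06 also had no count in any mutant library, against 73, 63 and 100 counts in the wild type libraries, and was at least 130.1-fold lower (edgeR adjusted p = 7.36e-09). Of these genes ftm4 has 3 near-identical protein copies elsewhere in the genome, whereas SPAC186.06 has no stretch of 75 bases that occurs elsewhere in the ASM294v3 genome. Both reached the filter on low counts in 3 libraries of wild type alone.

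SPAC750.01 had 0.746, 0.587 and 0.512 CPM in the mutant libraries, compared with 329, 361 and 366 CPM in the wild type libraries (log2 fold change -9.14 with SE 0.09 and edgeR adjusted p = 1.22e-16). The closest protein in the genome is that of SPAC977.14c at the left end of the same chromosome, with 94.46% identity. SPAC977.14c itself had 665, 654 and 695 CPM in the mutant libraries, against 1046, 972 and 987 CPM in the wild type libraries (log2 fold change -0.58 with SE 0.04 and edgeR adjusted p = 3.99e-08). So of this pair of aldo/keto reductase genes the copy at the right end was nearly absent from the mutant libraries and the copy at the left end was less than 2-fold lower. The difference between the copies was not tested. SPAC750.01 and gdt1 each reached the filter on low counts in 3 libraries of wild type alone. The antiporter gene gdt1 (SPAC186.05c) had 0.965, 0.245 and 0.559 CPM in the mutant libraries and 102, 104 and 104 CPM in the wild type libraries (log2 fold change -7.41 with SE 0.12 and edgeR adjusted p = 8.94e-15).

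Beside these genes lie others that were low in wild type too. The lactate dehydrogenase gene SPAC186.08c had 1, 0 and 0 counts in the mutant libraries and 22, 17 and 29 counts in the wild type libraries, 112 times lower by summed counts over library size (95% counting interval 19.5 to 4505; edgeR adjusted p = 1.64e-07). The hydroxyacid dehydrogenase gene SPAC186.07c had 0, 0 and 1 counts in the mutant libraries, against 28, 15 and 26 counts in the wild type libraries, 114 times lower by summed counts over library size (95% counting interval 19.8 to 4570.0; edgeR adjusted p = 1.48e-07). The truncated channel gene SPAC186.04c had 3, 0 and 0 counts in the mutant libraries and 42, 38 and 41 counts in the wild type libraries, 66.7 times lower by summed counts over library size (95% counting interval 22.3 to 328; edgeR adjusted p = 5.23e-08). In each of the 3 genes the mutant libraries lay below the wild type libraries. Each reached the filter on low counts in 3 libraries of wild type alone, so this separation is a description only. The antisense RNA gene prl61 lies opposite SPAC186.07c and had 0.204 ± 0.0824 CPM in the mutant and 92.1 ± 6.20 CPM in wild type (SD, n = 3 each; log2 fold change -8.79 with SE 0.13 and edgeR adjusted p = 6.76e-15). Whether strand was used in counting is not given in the sources, so the fall of SPAC186.07c and that of prl61 cannot be told apart.

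Higher at this end were SPAC186.02c, mel1 and SPAC869.05c. SPAC186.02c encodes a hydroxyacid dehydrogenase whose closest protein in the genome is that of SPAC186.07c, with 71.73% identity. It had 25, 29 and 26 counts in the mutant libraries, against 4, 1 and 0 counts in the wild type libraries (log2 fold change 3.21 with SE 0.51 and edgeR adjusted p = 5.78e-05). So these 2 related genes, 5 ranks apart, differed in opposite directions between the genotypes, each with libraries apart. Each passed the filter on low counts only through the genotype where it was high. The fall of SPAC186.07c cannot be told apart from that of prl61, and the contrast between the 2 genes was not tested. The alpha-galactosidase gene mel1 (SPAC869.07c), whose enzyme splits melibiose, had 3.16, 2.59 and 3.73 CPM in the mutant libraries, compared with 0.761, 1.12 and 0.716 CPM in the wild type libraries (log2 fold change 1.90 with SE 0.25 and edgeR adjusted p = 1.03e-05). The predicted sulfate transporter gene SPAC869.05c had 94.4, 87.9 and 87.8 CPM in the mutant libraries, against 74.6, 76.6 and 76.5 CPM in the wild type libraries (log2 fold change 0.25 with SE 0.04 and edgeR adjusted p = 7.23e-05). The first 2 were more than 3-fold higher and the third 1.19-fold.

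Among the inner members that were lower, the predicted urea transporter gene SPAC869.03c had 0.570, 0.587 and 0.466 CPM in the mutant libraries and 1.94, 2.15 and 1.65 CPM in the wild type libraries (log2 fold change -1.79 with SE 0.25 and edgeR adjusted p = 1.90e-05). The nitric oxide dioxygenase gene yhb1 (SPAC869.02c), which detoxifies nitric oxide, had 631, 604 and 610.2 CPM in the mutant libraries, compared with 1437, 1577 and 1668 CPM in the wild type libraries (log2 fold change -1.34 with SE 0.05 and edgeR adjusted p = 5.07e-11). Both fell more than 2-fold, and SPAC869.03c reached the filter on low counts in 3 libraries of wild type alone. The amino acid transporter genes put4 (SPAC869.10c, proline) and cat1 (SPAC869.11, arginine and lysine) fell by 0.64 and 0.37 on the log2 scale. Left out by name, the pyruvate decarboxylase gene pdc102 (SPAC186.09) at rank 9 lies inside the run of genes with almost no mutant counts. It had 0.109 ± 0.0327 CPM in the mutant and 13.1 ± 1.20 CPM in wild type (SD, n = 3 each; log2 fold change -6.82 with SE 0.23 and edgeR adjusted p = 8.75e-12). The flocculin gene pfl9 (SPAC186.01) at rank 17 was not called (log2 fold change -0.19, edgeR adjusted p = 0.0632).

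**Figure D3:**
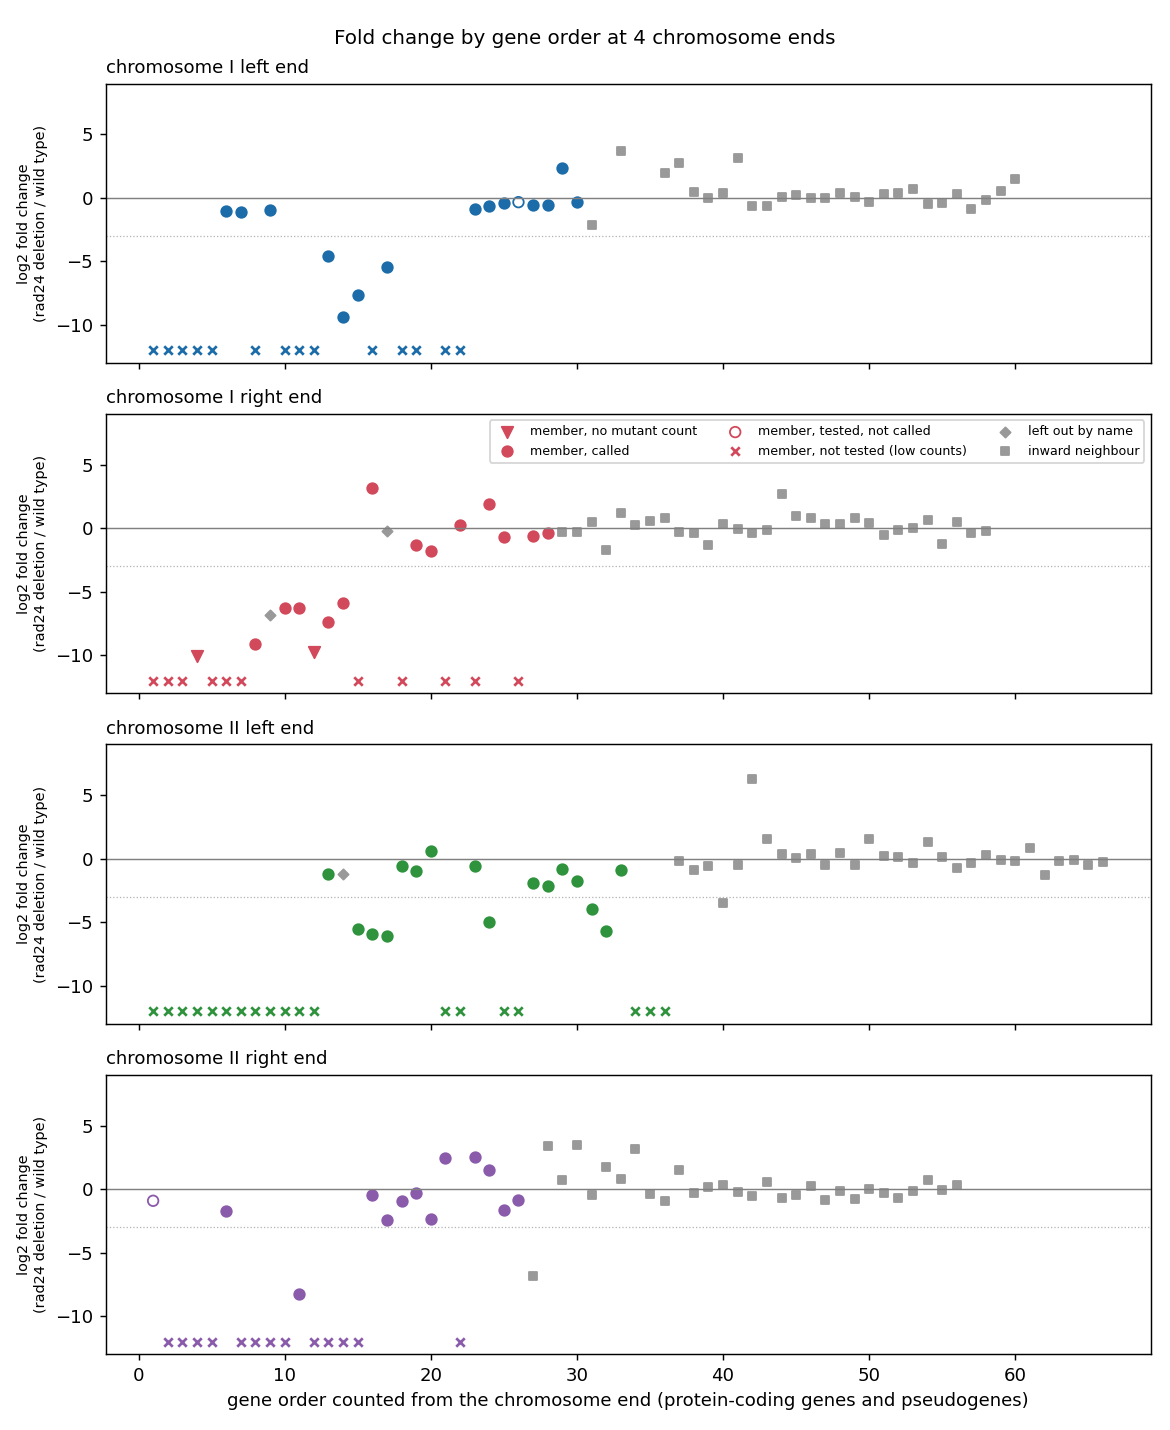
Log2 fold change (rad24 deletion over wild type) against gene order from the chromosome end, 1 panel for each of the 4 ends. Filled points are called members, open points are members tested and not called, triangles are members with no mutant count, crosses at the foot are members too low for a test, diamonds are genes left out by name and squares are the 30 inward neighbours, which lie on both sides of 0.

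At the left end of chromosome II, 15 of 16 tested members were lower and 1 was higher, with a median log2 fold change of -1.85. None of the outermost 12 members was tested. The largest falls were in 3 groups along the order: the transcription factor, hydrolase and transporter genes of SPBPB8B6 at ranks 15 to 17, SPBPB21E7.04c with its inward neighbours, and the genes of SPBPB10D8 at ranks 30 to 32. The summed level of the 35 members was 241, 201 and 218 CPM in the mutant libraries and 961, 1265 and 1322 CPM in the wild type libraries.

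The fatty acid amide hydrolase gene fah1 (SPBPB8B6.03) had 0.132, 0.0979 and 0.0466 CPM in the mutant libraries, against 5.88, 6.16 and 8.38 CPM in the wild type libraries (log2 fold change -6.10 with SE 0.32 and edgeR adjusted p = 9.44e-10). The transcription factor gene grt1 (SPBPB8B6.04c) had 0.132, 0.196 and 0.186 CPM in the mutant libraries and 10.6, 9.71 and 11.4 CPM in the wild type libraries (log2 fold change -5.90 with SE 0.22 and edgeR adjusted p = 2.02e-11). These 2 genes overlap on opposite strands, and the antisense RNA gene opposite grt1 had 0.312 ± 0.0869 CPM in the mutant and 11.9 ± 1.58 CPM in wild type (log2 fold change -5.24), so the falls of these partners cannot be told apart. The urea transporter gene SPBPB8B6.02c had 1, 1 and 0 counts in the mutant libraries and 19, 15 and 35 counts in the wild type libraries, 57.04 times lower by summed counts over library size (95% counting interval 15.2 to 480.4; edgeR adjusted p = 9.36e-07). The mutant libraries of the 3 genes held almost none of their RNA and lay below every wild type library. All reached the filter on low counts in 3 libraries of wild type alone, so this separation is a description only.

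SPBPB21E7.04c accounted for much of the summed wild type level of this end. It had 19.4, 13.6 and 18.5 CPM in the mutant libraries, compared with 388, 598 and 608 CPM in the wild type libraries (log2 fold change -4.95 with SE 0.17 and edgeR adjusted p = 9.25e-12). Genes further inward were lower as well. The pseudogene SPBPB21E7.08 had 90.3, 74.9 and 76.5 CPM in the mutant libraries, against 302, 387 and 397 CPM in the wild type libraries (log2 fold change -2.16 with SE 0.09 and edgeR adjusted p = 9.79e-11). The PhzF family gene aes1 (SPBPB21E7.07) had 29.8, 19.7 and 27.6 CPM in the mutant libraries and 83.3, 94.2 and 118 CPM in the wild type libraries (log2 fold change -1.93 with SE 0.13 and edgeR adjusted p = 1.25e-08). In all 3 genes wild type replicate 1 was the lowest of the wild type libraries, and it was still above every mutant library. Non-coding RNA genes lie opposite SPBPB21E7.04c, with 0.139 ± 0.123 CPM in the mutant and 1.14 ± 0.388 CPM in wild type, and opposite SPBPB21E7.08, with 4.14 ± 0.361 CPM in the mutant and 4.27 ± 0.977 CPM in wild type (SD, n = 3 each).

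In the innermost group, the arylsulfatase gene SPBPB10D8.02c had 0.702, 0.245 and 0.326 CPM in the mutant libraries, compared with 6.57, 4.57 and 8.66 CPM in the wild type libraries (log2 fold change -3.94 with SE 0.32 and edgeR adjusted p = 7.30e-08). The transporter pseudogene SPBPB10D8.03 had 1, 0 and 2 counts in the mutant libraries, against 39, 26 and 44 counts in the wild type libraries, 60.1 times lower by summed counts over library size (95% counting interval 20.02 to 296; edgeR adjusted p = 2.67e-08). The cysteine transporter gene SPBPB10D8.01 had 6.68 ± 0.451 CPM in the mutant and 22.7 ± 1.31 CPM in wild type (SD, n = 3 each; log2 fold change -1.77 with SE 0.09 and edgeR adjusted p = 5.04e-10). SPBPB10D8.01 and SPBPB10D8.02c overlap on opposite strands, and the antisense RNA gene opposite SPBPB10D8.02c had 0.0921 ± 0.0455 CPM in the mutant and 2.35 ± 0.748 CPM in wild type (log2 fold change -4.60 with edgeR adjusted p = 2.54e-07). The mutant libraries of these genes lay below the wild type libraries without overlap. SPBPB10D8.02c and SPBPB10D8.03 reached the filter on low counts in 3 libraries of wild type alone.

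The gene eno102 (SPBPB21E7.01c), which encodes a predicted enolase, a glycolytic enzyme, was the single member higher here. It had 12.5, 10.4 and 11.8 CPM in the mutant libraries, against 6.43, 8.12 and 8.52 CPM in the wild type libraries (log2 fold change 0.60 with SE 0.12 and edgeR adjusted p = 0.000482). The antisense RNA gene opposite it was lower (log2 fold change -0.22, edgeR adjusted p = 0.0147). Every mutant library lay above every wild type library, and the rise was 1.51-fold. The predicted transcription factor gene SPBC1348.12 at rank 13 was lower, with 6.47 ± 0.655 CPM in the mutant and 14.8 ± 1.995 CPM in wild type (SD, n = 3 each; log2 fold change -1.20 with SE 0.12 and edgeR adjusted p = 5.53e-07). Beside it, the hexose transporter gene ght7 (SPBC1348.14c), left out by name, had 1.12 ± 0.193 CPM in the mutant and 2.59 ± 0.710 CPM in wild type (SD, n = 3 each; log2 fold change -1.16 with SE 0.25 and edgeR adjusted p = 0.000743).

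At the right end of chromosome II, 9 of 13 tested members were lower, 3 were higher and 1 was not called, with a median log2 fold change of -0.92. This end had a single member at least 8-fold lower, SPBPB2B2.18, which resembles SPAC977.18 of the left end of chromosome I. Inward of it lies the galactose gene cluster, whose 3 genes were all lower. The summed level of the 26 members was 128, 114 and 118 CPM in the mutant libraries and 330.3, 329.7 and 347 CPM in the wild type libraries.

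SPBPB2B2.18 had 0.0439, 0.147 and 0.0931 CPM in the mutant libraries and 39.8, 26.6 and 22.3 CPM in the wild type libraries (log2 fold change -8.22 with SE 0.39 and edgeR adjusted p = 2.99e-10). Its protein is 87.96% identical to that of SPAC977.18, and 54.6% of its 75-base stretches occur elsewhere in the genome. Both genes of this plasma membrane protein pair thus had almost no counts in the mutant, each with libraries apart, at ends of different chromosomes. Both also reached the filter on low counts in 3 libraries of wild type alone. SPBPB2B2.19c, another member, overlaps SPBPB2B2.18 on the opposite strand.

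The Leloir pathway of galactose use is encoded by gal1 (galactokinase), gal10 (UDP-glucose 4-epimerase) and gal7 (the uridylyltransferase). The epimerase gene gal10 (SPBPB2B2.12c) had 18.6, 14.4 and 16.3 CPM in the mutant libraries, compared with 76.9, 89.7 and 100.1 CPM in the wild type libraries (log2 fold change -2.43 with SE 0.10 and edgeR adjusted p = 5.75e-11). The galactokinase gene gal1 (SPBPB2B2.13) had 34.3, 31.9 and 33.9 CPM in the mutant libraries, against 44.6, 40.98 and 53.04 CPM in the wild type libraries (log2 fold change -0.48 with SE 0.08 and edgeR adjusted p = 6.84e-05). The gene gal7 (SPBPB2B2.10c) had 13.6, 14.97 and 16.1 CPM in the mutant libraries and 18.4, 18.9 and 19.04 CPM in the wild type libraries (log2 fold change -0.33 with SE 0.08 and edgeR adjusted p = 0.00200). In the 3 genes no mutant library reached a wild type library, and gal10 differed by 5.38 times while gal1 and gal7 differed by 1.39 and 1.26 times. The call of gal7 was lost with scaling by library size only (log2 fold change -0.17, adjusted p = 0.0828). An antisense RNA gene opposite gal1 was lower too (log2 fold change -0.37, edgeR adjusted p = 0.0212), so the falls of this pair cannot be told apart.

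Between the gal genes, tgd1 (SPBPB2B2.11), a predicted nucleotide-sugar dehydratase gene that overlaps gal10 on the opposite strand, had 4.26, 3.47 and 2.93 CPM in the mutant libraries, compared with 6.37, 7.0 and 7.59 CPM in the wild type libraries (log2 fold change -0.97 with SE 0.15 and edgeR adjusted p = 5.95e-05). The reductase gene pan5 (SPBPB2B2.09c), which acts in pantothenate synthesis, had 22.6, 22.6 and 23.5 CPM in the mutant libraries, against 115, 118 and 115 CPM in the wild type libraries (log2 fold change -2.34 with SE 0.04 and edgeR adjusted p = 1.69e-14). The sterol deacetylase gene say1 (SPBPB2B2.02) had 2.94, 2.50 and 2.61 CPM in the mutant libraries and 7.82, 8.31 and 9.09 CPM in the wild type libraries (log2 fold change -1.64 with SE 0.13 and edgeR adjusted p = 7.99e-08). The amino acid transporter gene SPBPB2B2.01, the innermost member here, had 7.93 ± 1.47 CPM in the mutant and 14.3 ± 0.834 CPM in wild type (SD, n = 3 each; log2 fold change -0.84 with SE 0.12 and edgeR adjusted p = 2.66e-05). Of these 4 genes pan5 and say1 fell more than 2-fold, and none had overlapping libraries.

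The 3 higher members of this end lie at ranks 21 to 24, between pan5 and say1. The extracellular nucleotidase gene SPBPB2B2.06c had 15.1, 11.2 and 9.78 CPM in the mutant libraries, compared with 2.91, 1.68 and 1.72 CPM in the wild type libraries (log2 fold change 2.49 with SE 0.23 and edgeR adjusted p = 2.45e-07). The glutamine amidotransferase family gene SPBPB2B2.05 had 4.04, 3.92 and 4.28 CPM in the mutant libraries, against 1.66, 1.31 and 1.22 CPM in the wild type libraries (log2 fold change 1.53 with SE 0.18 and edgeR adjusted p = 3.88e-06). SPBPB2B2.08, a conserved fungal gene, had 19, 14 and 24 counts in the mutant libraries and 4, 1 and 1 counts in the wild type libraries (log2 fold change 2.47 with SE 0.49 and edgeR adjusted p = 0.000389), a mean level under 1 CPM in both genotypes. Each was more than 2-fold higher, with genes lower in the mutant on either side of them. SPBPB2B2.08 reached the filter on low counts in 3 libraries of the mutant alone, where it was high, so its rise is a description only.

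The outermost gene of this end is tlh2 (SPBCPT2R1.08c), a RecQ-type helicase gene. It had 32, 9 and 6 counts in the mutant libraries, against 14, 8 and 32 counts in the wild type libraries (log2 fold change -0.92 with SE 0.52 and edgeR adjusted p = 0.123). The libraries overlapped, with mutant replicate 1 and wild type replicate 3 equal at 32 counts. Without rad24 deletion replicate 1 it was called lower (log2 fold change -1.92, adjusted p = 0.0053). Most of its sequence occurs elsewhere in the genome, so its counts are uncertain.

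**Figure D4:**
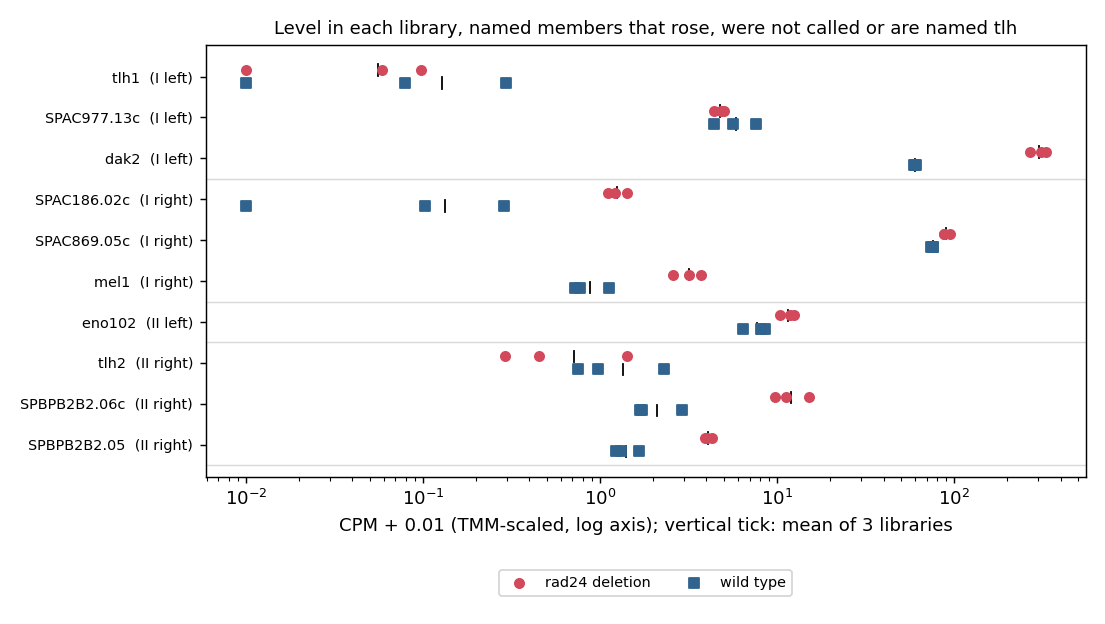
TMM-scaled CPM plus 0.01 on a log axis for the 7 named members called higher, the 2 tested members not called and the tlh genes, listed by chromosome end and gene order. Circles are the 3 rad24 deletion libraries, squares the 3 wild type libraries and vertical ticks the means; circles and squares overlap for tlh1, SPAC977.13c and tlh2 and are apart for the others.

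The 2 members of SPBPB7E8, which are not at an end, had small differences in opposite directions. SPBPB7E8.01, a Schizosaccharomyces-specific gene with a predicted GPI anchor, had 312, 308 and 326 CPM in the mutant libraries and 426, 409 and 399 CPM in the wild type libraries (log2 fold change -0.38 with SE 0.04 and edgeR adjusted p = 7.14e-07). SPBPB7E8.02, of the PSP1 family, had 68.1, 68.7 and 67.8 CPM in the mutant libraries, compared with 50.9, 57.5 and 54.1 CPM in the wild type libraries (log2 fold change 0.34 with SE 0.05 and edgeR adjusted p = 1.57e-05). Neither reached a 2-fold difference, and without them the members held 49 lower and 8 higher calls. Non-coding RNA genes opposite SPBPB7E8.01 and SPBPB7E8.02 differed in the same directions, with log2 fold changes of -1.43 and 0.69. Each member's difference cannot be told apart from that of the RNA opposite it.

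Calls were also counted in intervals of gene order, with no test of a trend. Over the 4 ends together, with genes left out by name and inward neighbours included, 31 of the 40 genes at ranks 1 to 10 were not tested, and of the other 9 genes 8 were lower and none higher. At ranks 11 to 20, 23 of 26 tested genes were lower and 2 higher, and at ranks 21 to 30, 20 of 30 were lower and 9 higher. At ranks 31 to 40, 16 of 34 were lower and 17 higher, at ranks 41 to 50, 15 of 40 and 18, and at ranks 51 to 60, 18 of 40 and 17. From rank 31 inward 37.5% to 47.1% of the tested genes in an interval were lower and 42.5% to 50% higher, beside 37.4% and 40.9% over all tested genes. The outer intervals rest largely on genes tested through their wild type level alone, which were 7 of the 9 tested at ranks 1 to 10 and 13 of 26 at ranks 11 to 20, against 1 of 30, 3 of 34, 0 of 40 and 0 of 40 further inward. Genes at least 8-fold lower numbered 4, 12, 2 and 3 in the outer 4 of these intervals and 0 in the inner 2.

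At ranks 21 to 30 of the left end of chromosome II all 6 tested genes were lower, whereas at the same ranks of its right end 3 of 9 were lower and 6 higher. Those 6 include pho1, pho84 and ecl3, which are inward neighbours and not members. The difference between ends was not tested, and prefixes rather than distance set where the members stop. The first gene inward of the members at the right end of chromosome II, fub2 (SPBP4G3.03), a predicted proteasome regulator gene, had 0.539 ± 0.0438 CPM in the mutant and 63.8 ± 12.8 CPM in wild type (SD, n = 3 each; log2 fold change -6.85 with SE 0.22 and edgeR adjusted p = 5.64e-12). At the left end of chromosome I the first inward gene, SPAPJ695.02, was lower too, with 3.90 ± 0.857 CPM in the mutant and 17.5 ± 1.41 CPM in wild type (log2 fold change -2.16 with SE 0.14 and edgeR adjusted p = 5.52e-09). First inward genes at the right end of chromosome I (SPAC922.07c) and the left end of chromosome II (SPBC359.01) differed less, by -0.32 and -0.17. Next inward of fub2, pho1 was higher (log2 fold change 3.38).

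The 30 inward neighbours at each end served as a measure of the same chromosomes beyond the members. Of these 120 genes 117 were tested, 51 were lower and 53 higher, with a median log2 fold change of 0.01, and 7 were at least 2-fold lower and 16 at least 2-fold higher. By end, 6 of 27 tested neighbours were lower at the left end of chromosome I, 14 of 30 at its right end, 16 of 30 at the left end of chromosome II and 15 of 30 at its right end. Chromosome III, whose ends carry ribosomal DNA, gave no member. Of the outermost 30 genes at its left end 13 of 29 tested were lower and 7 higher, and at its right end 14 of 30 were lower and 11 higher, with medians of -0.06 and -0.04.

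Many members share sequence with other genes. Of the 118 members, 57 encode a protein with a near-identical copy (at least 95% identity over at least 80% of the length). The counting tool's usual setting leaves out reads that match several places, but the setting used is not given, and whether unplaced reads had a part in the low counts was not tested. Of the 22 members whose every stretch of 75 bases occurs elsewhere in the ASM294v3 genome, 20 were not tested. Among the 63 members with at least 50% of such stretches elsewhere, 17 were tested, of which 16 were lower, none was higher and 1 was not called, and 9 of the 17 were tested through wild type alone. For the 52 members with no such stretch elsewhere, 42 were tested, 32 were lower, 9 were higher and 1 was not called, so every higher call was at a gene of unique sequence.

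Families spread over several ends were mostly below the test. The 8 genes of the 5Tm family lie at ranks 3 to 15, and the 3 tested (ftm1, ftm2 and ftm4) were all lower. The DUF999 family had 10 members, of which 2 were tested. SPAC212.04c was lower, and SPBCPT2R1.04c was called lower with overlapping libraries, at 13, 0 and 2 counts in the mutant libraries and 9, 6 and 16 counts in the wild type libraries (log2 fold change -1.74 with SE 0.67 and edgeR adjusted p = 0.0289), a call lost with DESeq2 (adjusted p = 0.185). An untested DUF999 gene, SPAC750.06c at the right end of chromosome I, had 0, 0 and 0 counts in the mutant libraries, against 19, 21 and 8 counts in the wild type libraries, the highest wild type sum of any untested member, with no mutant count at all. Of the 4 L-asparaginase genes 3 were tested and lower, with log2 fold changes between -0.78 and -0.38, and both fluoride channel genes (fex1 and fex2) were lower, by 0.65 and 0.96 on the log2 scale. The PhzF genes SPAC186.06 and aes1, at ends of different chromosomes, were both at least 2-fold lower. Near-identical copies share reads, so the split of counts between them is uncertain.

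Genes for the machinery of telomeres and silencing were read from the same fit, over a list of 30 genes that were all tested. Of 11 telomere genes 2 were lower and 7 higher (18.2% and 63.6%), beside 37.4% and 40.9% over all tested genes. The lower ones were poz1, a bridge of the shelterin complex, with 40.3 ± 2.76 CPM in the mutant and 73.9 ± 4.12 CPM in wild type (SD, n = 3 each; log2 fold change -0.87 with SE 0.06 and edgeR adjusted p = 8.65e-09), and rif1 (log2 fold change -0.34), a regulator of telomere length and replication timing. The largest rises were those of ten1 (0.82) and stn1 (0.62), which encode a complex that protects the chromosome end. Over the list as a whole no gene reached a 2-fold difference. Of the 30 genes 9 were lower and 17 higher (30.0% and 56.7%), with a median log2 fold change of 0.15.

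Among 15 silencing genes 6 were lower and 7 higher. The anti-silencing gene epe1, whose product opposes the spread of heterochromatin, differed by the most, with 57.4 ± 1.75 CPM in the mutant and 112.6 ± 3.27 CPM in wild type (SD, n = 3 each; log2 fold change -0.97 with SE 0.04 and edgeR adjusted p = 4.67e-11). Also lower were chp1 (-0.79), clr2 (-0.66), rik1 (-0.65), set2 (-0.39) and sgo2 (-0.19), as log2 fold changes. The methyltransferase gene clr4 was higher (0.40), as was clr1 (0.49), while swi6 was not called (-0.04, adjusted p = 0.215). The call of sgo2 was lost with scaling by library size only (log2 fold change -0.03, adjusted p = 0.489), where swi6 was called higher (0.12, adjusted p = 0.0053). Under that scaling 5 silencing genes were lower and 9 higher, and 2 telomere genes were lower and 9 higher. Of 4 genes that tether chromosome ends to the nuclear envelope, man1 was lower (-0.29) and bqt4 (0.45), bqt3 (0.27) and lem2 (0.08) were higher, and lem2 lost its call with RLE factors and with DESeq2. The part of any of these genes in the levels of the members was not tested.

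In the authors' deposited table, made with another test, 106 members had an adjusted p, and at 0.05 there were 55 lower and 9 higher. Among the 106 are SPAC212.05c, SPBC1348.15 and SPBPB2B2.15, which had no count in any library here. That fit may therefore hold other counts, and its numbers of calls are not a like comparison. Over all 6689 genes with an adjusted p in the authors' deposited table, 1941 were lower and 2004 higher.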

How the data were processed

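Poly(A)+ RNA of 3 rad24 deletion and 3 wild type libraries, grouped by their genotype labels, was analysed from the raw counts per gene that the authors deposited. Per the labels' protocols, the library kit was stranded and reads were paired. Tools named in the submitters' processing notes are HTSeq 0.10.0, HISAT2 2.1.0, DESeq2 and SAMtools, with the build ASM294v2, and the sources used here do not give the strand or multi-mapping settings. A second table deposited by the authors gives log2 fold changes, p-values, a test score and mean normalized counts (a signal per gene), per the file headers, and is used for its counts of calls alone.

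A repeated identifier was dropped from the 6987 rows of the count table. Genes passing filterByExpr were tested in edgeR 4.0.16 (R 4.3.3) with TMM factors and genotype as the only term, over the whole table. Each SE is the absolute log2 fold change over the root of the test's F and may overstate the precision. Means and SDs are over 3 libraries. Floors (3 counts over a group) and exact conditional intervals (95%) cover counting error only. Counts of libraries of 1 genotype were further apart than sampling noise gives (chi-square of 2.44 to 7.94 per degree of freedom). The steps were tested on simulated counts.

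Gene order, overlaps, protein identity (blastp 2.17.0) and shared stretches of 75 bases come from ASM294v3, which matched 6833 identifiers; since its build is not that of the counts, neither coordinates nor sequences are printed.

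Members, gene lists and tests were chosen with earlier results of these data known. At each end the text names up to 8 members lower and 4 higher with the largest changes (called, libraries apart, at least 1 CPM in the higher genotype), up to 3 not called and the tlh genes. The other members given with values (SPAC212.12, SPAC977.14c, SPAC977.17, yhb1, put4, cat1, SPBC1348.12, fex2, SPBPB10D8.01, SPBPB2B2.08, SPAC750.06c, SPBCPT2R1.04c and those of SPBPB7E8) were chosen after their values were seen. Alternatives were scaling by upper quartile, RLE or library size only, other filters, DESeq2 1.42.0, limma-voom from limma 3.58.1, a replicate block, leaving out each library, a test against a 2-fold bound and members without near-identical copies; leaving out SPBPB7E8 was added after the data were seen.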

Additional observations from a re-analysis of the deposited data

How the results depend on the processing

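Of 641 values of the 41 named tested members under the alternatives, 628 kept their direction and side of the threshold, 11 lost the call (10 of them with the 2-fold bound, the other gal7 with library size only), 2 gained one and 0 changed sign. Most of the 41 were picked from these data as called, with libraries apart and large changes, so this stability was largely set in advance. The calls at SPAC212.12, SPAC869.08, SPBPB21E7.11, SPBPB2B2.08 and SPBCPT2R1.04c are not among them. Without the 2-fold bound, the alternatives gave 35 to 62 members lower and 7 to 10 higher. With the test against a 2-fold bound 26 members were lower in all, 4 at the left end of chromosome I, 9 at the left end of chromosome II and 4 at its right end, and 0 were higher at the left end of chromosome II. With at least 50 counts required in each library of a genotype, 7 were lower at the right end of chromosome I, and without members that have near-identical proteins 7 were lower at the left end of chromosome I. Fewer members are tested under these 2 settings by construction. The median log2 fold change of the tested members was -0.80 with scaling by library size only, where that of all tested genes moved from 0.02 to 0.19, and it ranged from -1.15 (without rad24 deletion replicate 1) to -0.94 when each library was left out in turn. Same-numbered libraries showed little shared deviation (correlations -0.00136, -0.00287 and 0.0503, beside -0.03865 to 0.03871 for the other pairs). No pairing by number was seen, which does not exclude one. The fit with the replicate block gave 50 members lower and 9 higher and a median of -0.97, and over all genes 2266 lower and 2487 higher. Of the 40 genes at ranks 1 to 10 of the 4 ends, 31 could not be tested. SPBCPT2R1.04c, SPAC869.08 and SPBPB21E7.11 lost their calls with DESeq2.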
